A study of Mus musculus with 20 samples.

Results

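Ly6c1, Ly6a, Ly6e, Ly6d and Lypd6b are 5 mouse genes of the Ly6/uPAR family, of 27503 named on the array, followed here across sorted CD4 T cell populations. Their 6 probes, of 39429 on the array, were found by gene name in the scanner files. The genes were chosen on their intensities in all 12 groups, so their levels and differences are given as a description, without a test.

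Each of the 20 arrays held RNA of 1 sorted CD4+ B220- population, which the labels give as pooled from 8 to 15 mice of both sexes, aged 8 to 14 weeks, of the strain B6.Cg-Foxp3<tm1Mal>, in which green fluorescent protein (GFP) reports Foxp3, so every group carried the reporter allele. The paper gives other numbers of mice per pool in another place. Its methods name immunisation under the skin with keyhole limpet haemocyanin (KLH) in Alum for the mice of both tissues, peripheral lymph nodes (pLN) and Peyer's patches (PP), the lymphoid follicles of the gut wall. The sample labels, however, name immunisation and a day for the pLN samples only. Whether PP and pLN samples were matched in treatment and day therefore cannot be told from the labels. From pLN, naive T cells (GFP- PD1- GL7-), follicular helper T (TFH) cells (GFP- PD1hi GL7+), regulatory T (Treg) cells (GFP+ PD1- GL7-) and follicular regulatory T (TFR) cells (GFP+ PD1hi, with or without GL7) were sorted at day 12 with 2 arrays per group and at day 25 with 1 array per group. From PP, 4 populations were sorted with 2 arrays each (TFH cells with and without GL7, Treg cells and TFR cells), and there was no naive group. Slides 1 and 2 held the 2 replicates of the pLN day 12 groups, slide 3 the day 25 groups, and slides 4 and 5 the 2 replicates of the PP groups, so tissue and slide cannot be told apart. The labels give an RNA input of 50 ng for slides 1 and 4 and of 40 ng for slides 2, 3 and 5. Slides 2 and 3 were scanned on the same day, and the other slides each on a different day. The part of RNA input or scan day in differences between slides was not tested. In such pooled samples a lower intensity can reflect fewer positive cells or less RNA per cell, and these cannot be told apart.

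Ly6 proteins are small cell-surface proteins with a disulphide-bonded fold of finger-like loops, and most are held in the outer leaflet of the membrane by a glycosylphosphatidylinositol (GPI) anchor. Several are induced by interferons or on lymphocyte activation and serve as markers of blood cell subsets. Ly6c1 encodes a form of Ly6C, a marker of monocytes and of some T cells, Ly6a encodes Sca-1, which marks blood stem cells and activated lymphocytes, Ly6e encodes an interferon-inducible surface protein also known from immature thymocytes, Ly6d marks early commitment to the B cell lineage, and Lypd6b is related to modulators of nicotinic acetylcholine receptors.

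Among the members, 4 lie on chromosome 15, where their probes spanned 285.3 kb (mm9), and Lypd6b lies on chromosome 2. In mm9 the probes covered chr15:74592551-74592610 (Ly6d), chr15:74789592-74789651 (Ly6e), chr15:74825553-74825612 (Ly6a) and chr2:49804191-49804250 (Lypd6b). Ly6c1 had 2 probes, at chr15:74875495-74875554 and chr15:74877785-74877844, with 2230 bases between them. Ly6c1 is on the minus strand, so the first of these, called here the 3′ probe, lies nearer the end of the transcript, and the other is called the second probe. The files assign the probes to different sets of Ly6c1 transcripts, which have 1 transcript in common. The near-identical gene Ly6c2 had no probe of its own name, so how much of either signal came from it cannot be told. The part of the transcript that each probe covers (exon or untranslated region) was not analysed here.

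The first 30 bases of the 60-base probes are shown for Ly6c1 and Ly6a, because the 2 Ly6c1 probes gave different patterns and the 3′ probe followed Ly6a.
Ly6c1 3′ probe: tattatagtatcaccatccacacataagta
Ly6c1 second probe: agcagttacctgccgcgcctctgatggatt
Ly6a probe: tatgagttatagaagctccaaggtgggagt
No member probe shared a run of more than 9 identical bases with any of the 60 other probes compared. These were the probes of the members, of the other family genes and of the genes with the most similar patterns. Probes were compared with probes only, so whether a member probe also binds the transcript of a related gene was not tested.

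Intensities are normalised values on a linear scale in which the 75th percentile of each array is 1500 and 20 is the floor. A probe was detected when at least 3 of its 4 features stood well above background, and all 6 member probes were detected on all 20 arrays. Because each probe binds its target with its own efficiency, levels are compared between groups only, never between probes. The arrays detected 43.0% to 58.0% of the probes, with 0 saturated. The median local background was 24 to 78 on 19 arrays and 268 on the pLN day 12 TFR array of slide 2. Foxp3 lay between 13409 and 35129 on every Treg and TFR array and between 27 and 192 elsewhere. Pdcd1 was 27456 or more on the TFH and TFR arrays and 6517 or less on the naive and Treg arrays. Cxcr5 was 86197 or more in TFH cells and 1557 or less in naive cells. It was 12125 to 15655 in pLN TFR cells, 72183 or more in PP TFR cells, and 3071 to 15156 in Treg cells. The pLN TFR and PP Treg arrays thus overlapped for Cxcr5. Among other Treg markers, Lrrc32 was 8579 or more in Treg and TFR cells and 155 or less elsewhere. Ikzf2 overlapped between TFH (5878 to 8544) and Treg cells (5202 to 9724). Il2ra was 1191 and 3268 in PP TFR cells, against 13579 or more in Treg and pLN TFR cells. Ccr7 was 87307 or more in naive and Treg cells and 36476 or less in TFH and TFR cells. All 12 B cell markers measured (among them Cd79a and Ms4a1) were detected on the 4 arrays of slide 4, although B220+ cells had been gated out. They summed there to between 24222 and 168631, against 5766 to 22165 on the other slides. All 12 were also detected on the pLN day 12 TFH array of slide 1 (sum 22165) and the GL7+ TFH array of slide 5 (sum 14398).

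**Figure D1:**
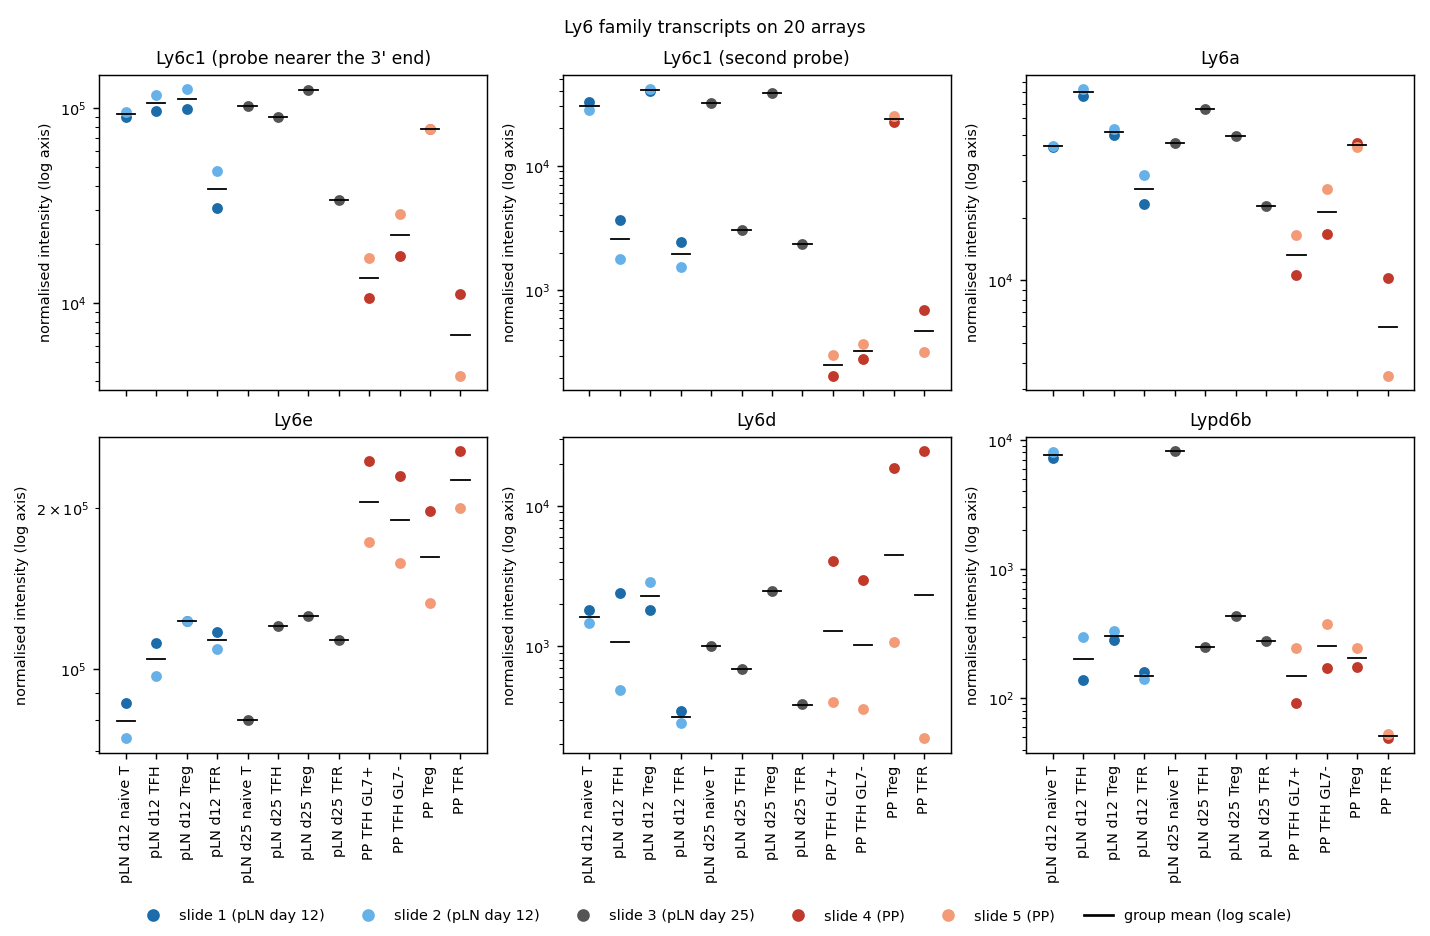
Normalised intensity (log axis, a scale per panel) of the 6 member probes on every array by group, coloured by slide, with a line at the mean of the log values of the group. The second Ly6c1 probe lay between 22281 and 41380 in naive and Treg cells and at 3691 or below in TFH and TFR cells, and Lypd6b was 7187 or more in naive cells and 431 or less elsewhere.

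Ly6c1 was bright in naive and Treg cells by both probes and lowest in PP follicular cells, but the probes differed for pLN TFH cells. The summed intensity of 2 CD8 T cell markers, Cd8a and Cd8b1, both detected on all arrays, was also higher in naive and Treg cells than in follicular cells of the same slide: 4800 to 6546 against 1995 to 4149 in pLN, and 2113 and 2424 in PP Treg cells against 790 to 1432 in the other PP groups. Its part in the Ly6c1 and Ly6a values was not tested. By the second probe, naive cells of pLN gave 32546 and 27828 at day 12 and 32046 at day 25, and Treg cells gave 39655 and 41380 at day 12 and 38077 at day 25. The TFH cells of pLN gave 3691 and 1790 at day 12 and 3067 at day 25. The TFR cells of pLN gave 2441 and 1556 at day 12 and 2372 at day 25. In pLN, TFH and TFR cells overlapped with each other and lay far below naive and Treg cells, with no overlap. In PP, Treg cells gave 22281 and 25172 by this probe. There, GL7+ TFH cells gave 207 and 306, GL7- TFH cells 284 and 370, and TFR cells 696 and 318. The PP Treg arrays were thus separated from the other 6 PP arrays, among which the TFH groups overlapped.

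Within slides, the second Ly6c1 probe was 8.82-fold and 15.5-fold lower in TFH than in naive cells at day 12, and 10.4-fold lower at day 25. It was 16.2-fold and 26.6-fold lower in TFR than in Treg cells at day 12, 16.1-fold lower at day 25, and 32.0-fold and 79.1-fold lower in PP. The mean log2 differences with the standard error of the fit were -3.55 ± 0.42 for TFH against naive, -4.38 ± 0.42 for TFR against Treg in pLN at day 12, and -5.65 ± 0.42 for TFR against Treg in PP (n = 2 arrays per group). The spread between replicate arrays was smaller than each of these differences.

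By the 3′ probe, pLN naive cells gave 89863 and 95700 at day 12 and 102423 at day 25, TFH cells 96591 and 116832 and then 90169, and Treg cells 99244 and 125468 and then 124026. The TFR cells of pLN gave 30706 and 47800 at day 12 and 33573 at day 25, below every other pLN array. In PP, Treg cells gave 78234 and 77813, GL7- TFH cells 17515 and 28578, GL7+ TFH cells 10619 and 16998, and TFR cells 11175 and 4234. GL7- TFH cells exceeded GL7+ TFH cells on both slides, by 1.65-fold and 1.68-fold, and TFR cells overlapped with GL7+ TFH cells. The log2 difference between pLN TFH and naive cells at day 12 was 0.20 ± 0.43 by this probe. It turned to -0.31 when arrays were scaled to the 75th percentile without quantile normalisation, so no direction can be given. For TFR against Treg cells, the 3′ probe differed by -1.54 ± 0.43 in pLN at day 12 and by -3.50 ± 0.43 in PP, the same sign as the second probe with a smaller size. PP TFH (GL7+) cells were 7.91-fold lower than pLN TFH cells by the 3′ probe and 10.2-fold lower by the second probe, and neither pair of groups overlapped.

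**Figure D2:**
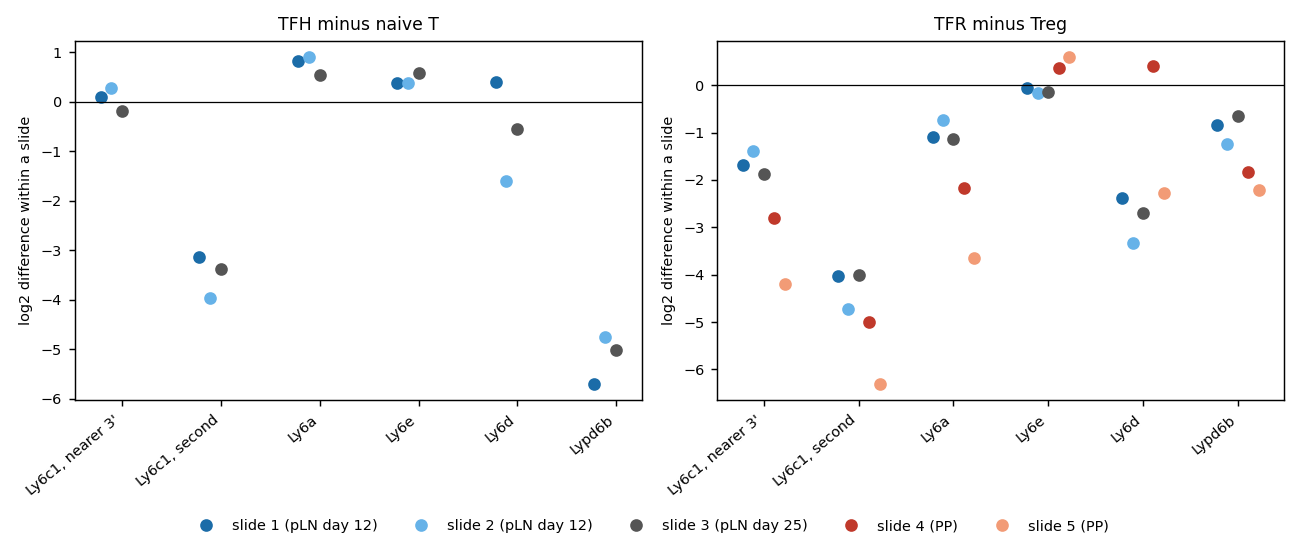
Difference in log2 intensity between 2 arrays of the same slide for each member probe, TFH minus naive (left, pLN only) and TFR minus Treg (right), 1 point per slide, coloured by slide. Both Ly6c1 probes, Ly6a and Lypd6b lay below 0 on all 5 slides for TFR minus Treg, whereas for TFH minus naive only the second Ly6c1 probe and Lypd6b lay far below 0.

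Ly6a, the gene of Sca-1, was highest in pLN TFH cells and lowest in PP TFR cells. The naive cells of pLN gave 44060 ± 447 (SD, n = 2) at day 12 and 45930 at day 25, and TFH cells gave 80150 ± 4293 (SD, n = 2) and 66530. The Treg cells of pLN gave 51500 ± 2259 (SD, n = 2) and 49370, and TFR cells 27710 ± 6232 (SD, n = 2) and 22630. The order in pLN, TFH over Treg over naive over TFR, was the same on slides 1, 2 and 3, and the day 12 groups did not overlap. In PP the Treg cells gave 44710 ± 1658 (SD, n = 2), GL7- TFH cells 22000 ± 7570 (SD, n = 2), GL7+ TFH cells 13480 ± 4161 (SD, n = 2) and TFR cells 6848 ± 4777 (SD, n = 2). Treg cells of the tissues were close, with a log2 difference between PP and pLN of -0.20 ± 0.44. TFH cells of PP were 6.09-fold lower than those of pLN, and TFR cells of PP were 4.59-fold lower than those of pLN. On the log2 scale the TFR difference was -2.20, with -2.98 when the PP TFR array of slide 4 was left out and -1.42 without that of slide 5.

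The differences in Ly6a between TFR and Treg cells varied between slides. They were 2.14-fold and 1.65-fold lower in TFR cells at day 12, 2.18-fold lower at day 25, and 4.49-fold on slide 4 and 12.6-fold on slide 5 in PP. The larger values in PP came with a wide replicate spread, since PP TFR cells gave 10226 on slide 4 and 3470 on slide 5. On these arrays the B cell markers summed to 168631 and 14317. Between the PP slides, Ly6a was higher on slide 4 in TFR and Treg cells and lower there in both TFH groups. The part of B cell RNA in the Ly6a and Ly6c1 values was not tested. Against GL7+ TFH cells of the same slide, PP TFR cells were level on slide 4 (log2 difference -0.04) and 4.73-fold lower on slide 5. Without slide 4 the PP difference between TFR and Treg cells was -3.65 for Ly6a and -4.20 for the 3′ Ly6c1 probe on the log2 scale. The change in the difference between tissues was -2.00 ± 0.62 for Ly6a and -1.96 ± 0.62 for the 3′ Ly6c1 probe.

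Ly6e was detected at 74050 or more on every array. The naive cells of pLN were lowest, with 86101 and 74050 at day 12 and 80203 at day 25. The other pLN arrays lay between 96877 and 125468, and the PP arrays between 132656 and 255744. All PP arrays exceeded all pLN arrays, by log2 differences at day 12 of 0.40 ± 0.26 for Treg, 0.98 ± 0.26 for TFH and 1.00 ± 0.26 for TFR cells. Over the alternatives tried, the Treg difference ran from 0.111 to 0.687. On slide 4 each group was brighter than on slide 5. Treg cells exceeded naive cells by 1.43-fold and 1.66-fold at day 12 and 1.56-fold at day 25.

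The direction of several Ly6e differences depended on the scaling. With quantile normalisation, TFH cells of pLN exceeded naive cells by 0.38 ± 0.26 and TFR cells of PP exceeded Treg cells by 0.48 ± 0.26 on the log2 scale, and with scaling to the 75th percentile alone the values were -0.06 and -0.22. GL7+ minus GL7- TFH cells in PP went from 0.11 to -0.04, and day 25 minus day 12 in TFR cells from 0.00 to -0.15. These differences are therefore left without a direction.

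Ly6d, the marker of the early B cell lineage, differed between the PP slides in every population. On slide 4, GL7+ TFH cells gave 4074, GL7- TFH cells 2947, Treg cells 18475 and TFR cells 24417. On slide 5 the same groups gave 400, 358, 1066 and 221. Every PP group was therefore higher on slide 4 than on slide 5. The B cell markers, all detected on slide 4, summed there to 41552, 24222, 112873 and 168631 in the same order, and on slide 5 to 14398, 6871, 16527 and 14317. Epithelial markers (7 measured, among them Epcam and Krt8) summed to between 5612 and 13220 on slide 4 and between 632 and 2577 elsewhere. The part of B cell or epithelial RNA in the Ly6d values was not tested.

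In pLN, Ly6d was lowest in TFR cells on every slide. The day 12 naive cells gave 1637 ± 244 (SD, n = 2), TFH cells 1435 ± 1342 (SD, n = 2), Treg cells 2326 ± 739 (SD, n = 2) and TFR cells 314 ± 43.4 (SD, n = 2). TFH cells gave 2384 on slide 1 and 486 on slide 2, while the 12 B cell markers summed to 22165 and 6373 on these arrays. Treg cells gave 1803 and 2848 at day 12 and 2494 at day 25, and TFR cells 345, 284 and 385, with B cell marker sums in TFR and Treg cells of 8969 and 11138 on slide 1, 7770 and 18398 on slide 2, and 8146 and 14295 on slide 3. In PP the same difference was 4.83-fold on slide 5 and was absent on slide 4, where TFR cells were 1.32-fold higher. The standard error of any Ly6d difference between groups of 2 arrays was 2.11 on the log2 scale.

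**Figure D3:**
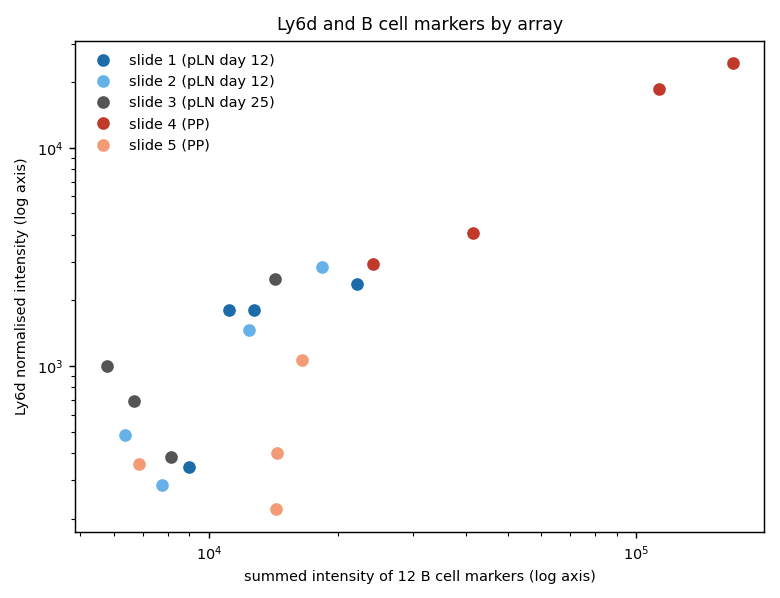
Ly6d intensity against the summed intensity of 12 B cell markers on each of the 20 arrays (both axes log), coloured by slide. The 4 arrays of slide 4 hold the highest marker sums, 24222 to 168631, and the highest Ly6d intensities, 2947 to 24417.

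Lypd6b was a transcript of naive cells. Naive cells of pLN gave 7187 and 8010 at day 12 and 8141 at day 25, and the other 17 arrays lay between 49 and 431. Within slides, TFH cells were 51.9-fold and 26.9-fold lower than naive cells at day 12 and 32.4-fold lower at day 25, and Treg cells were 25.3-fold, 24.3-fold and 18.9-fold lower. The log2 difference at day 12 was -5.23 ± 0.51 for TFH and -4.63 ± 0.51 for Treg cells against naive cells (n = 2 arrays per group). Among the antigen-experienced and regulatory groups, Treg cells exceeded TFR cells on all 5 slides, by 1.78-fold and 2.35-fold at day 12, 1.56-fold at day 25, and 3.54-fold and 4.63-fold in PP. PP TFR cells were lowest, with 49 and 53, and did not overlap with any other group.

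Read by comparison, the members past the rule used for calls (adjusted p under 0.05 in the limma fit and at least 1 on the log2 scale) are counted with their lead probe, the brighter one for Ly6c1, and nothing is read from these counts because the members were chosen on the same values. For TFH against naive cells in pLN at day 12, 1 of 5 members (Lypd6b, lower) was past the rule, beside 14.7% of all 22264 probes tested. The second Ly6c1 probe, with a log2 difference of -3.55, was past the rule there too but is not counted. For Treg against naive cells the member past the rule was again Lypd6b, lower, beside 3.76%. For TFR against Treg cells it was Ly6c1 in pLN at day 12, beside 8.35%, and Ly6c1, Ly6a and Lypd6b in PP, all lower, beside 9.25%. For TFR against TFH cells it was 0 of 5 in pLN, beside 5.01%, and 0 of 5 in PP, beside 3.44%. PP against pLN at day 12 gave 0 members for Treg cells beside 2.24%, 2 for TFH cells (Ly6c1 and Ly6a, lower) beside 4.54%, and 3 for TFR cells (Ly6c1 and Ly6a lower, Ly6e higher) beside 11.1%. Ly6e was past the rule by a log2 difference of 1.001, and its value was 0.53 with scaling to the 75th percentile alone and 0.82 without slide 4, both under 1. GL7+ against GL7- TFH cells gave 0 members beside 0.00898%, and the TFR minus Treg difference compared between PP and pLN gave 0 beside 0.548%. By the F test among the 12 groups, 3 of 5 members were past the rule, beside 17.3%.

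Day 25 was compared with day 12 on 1 array per group at day 25. No member was past the rule for naive, TFH, Treg or TFR cells, beside 0.00898%, 0.0314%, 0% and 0.00898% of probes, and for Treg cells, where limma called no probe, 780 probes had an unadjusted p under 0.05. The largest member difference was in Lypd6b, whose TFR cells were 0.89 ± 0.62 higher at day 25 on the log2 scale, with 1 array at day 25.

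Over the 12 group means of log2 intensity, Ly6a and the 3′ Ly6c1 probe had a Pearson r of 0.96, Ly6a and the second Ly6c1 probe 0.68, and the 2 Ly6c1 probes 0.85. Ly6e went opposite to Ly6a (r = -0.71), to the 3′ Ly6c1 probe (-0.77) and to Lypd6b (-0.77), and Ly6d was unrelated to Ly6a (0.01). These values describe 12 groups that share slides, and have no test. The genes most like Ly6a were Ly6g (0.99), 9030619P08Rik (0.99), Gm3142 (0.97), Ly6c1 (0.96) and Fasl (0.94), of which 4 have their probes on chromosome 15. The genes most like the 3′ Ly6c1 probe were 9030619P08Rik (0.99), Ly6g (0.98), Gm3142 (0.97), Parp11 (0.97) and Ly6a (0.96), again 4 of 5 on chromosome 15. For Ly6d they were Ptp4a3, Rnase6, Ehd2, Ccr9 and Gimap9 (0.88 to 0.92). For Ly6e they were Txndc12, Pbx2, Pigb, Izumo1r and Man2b2 (0.97 to 0.98), and for Lypd6b they were Rassf3, Lrrc75b, 2810001G20Rik, Pdlim4 and Slc20a1 (0.96 to 0.97). The share of all probes on chromosome 15 is not given beside the counts for that chromosome, so nothing is read from them.

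RefSeq promoter windows (GRCm38.p6, 250 bases before to 50 after the annotated start) were at hand for 1 of 5 members, Ly6c1, and for Ly6g, whose pattern over groups was close to that of the 3′ Ly6c1 probe. Both are shown for that reason, with capitals marking matches to the E-box CANNTG, the letters bound by basic helix-loop-helix factors.
Ly6c1, chr15:75048788-75049087, minus strand: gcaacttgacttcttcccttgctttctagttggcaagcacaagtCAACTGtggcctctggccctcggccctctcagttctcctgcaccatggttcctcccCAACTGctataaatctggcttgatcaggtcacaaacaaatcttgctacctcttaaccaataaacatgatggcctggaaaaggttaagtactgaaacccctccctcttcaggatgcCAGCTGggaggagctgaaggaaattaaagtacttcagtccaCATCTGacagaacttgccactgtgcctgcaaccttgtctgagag
Ly6g, chr15:75155011-75155310, plus strand: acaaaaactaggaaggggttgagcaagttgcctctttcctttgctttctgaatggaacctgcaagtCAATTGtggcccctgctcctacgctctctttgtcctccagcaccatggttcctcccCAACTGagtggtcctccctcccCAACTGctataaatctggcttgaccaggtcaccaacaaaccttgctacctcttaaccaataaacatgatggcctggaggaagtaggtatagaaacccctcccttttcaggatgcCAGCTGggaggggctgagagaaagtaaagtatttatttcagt
The windows shared an identical run of 37 bases. Each held 4 E-box matches, and 72.3% of all 32851 such windows held at least 1 and 6.49% at least 4. Neither window held the core of the interferon-stimulated response element or the STAT-type palindrome TTCNNNGAA on either strand, which 3.44% and 8.30% of all windows held. The KLF-type motif CACCC, present in 57.5% of windows, was in neither of the windows shown and occurred 3 times in the window of a second Ly6c1 start (chr15:75048614-75048913). That window held 2 E-box matches, and the window of a second Ly6g start held 3, fewer than the windows shown. Windows of 2 starts of Ly6c2, the near-identical gene without a probe of its own name, were also at hand and are not shown. Each held 2 E-box matches. Of these, 1 shared a longest run of 20 bases with the Ly6c1 window shown and held 1 CACCC match. E-box and CACCC matches did not overlap. These are matches of letters, not sites of binding.

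Beyond the members, 42 mouse genes of the Ly6/uPAR family were listed, of which 36 had a probe and 14 could be tested. Of these 36, 17 were detected on no array, among them Psca, Ly6h and Lypd6, and Lypd8, a protein of the gut epithelium, was detected on 4 arrays, up to 1128. The 14 were tested because some group of 2 had them detected on each of its arrays. The limma fit called 9 of them in at least 1 comparison. The share of all probes called in at least 1 comparison is not given here, so nothing is read from that count. By the F test 3 of 14 passed (Ly6k, Slurp2 and Ly6f, the last of which was in the fit only through its high group), beside 17.3% of all probes, and 7 with slide as a random block, 0 without slide 4 and 1 to 2 when single arrays were left out.

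Ly6k, a protein best known from the testis, paralleled the second Ly6c1 probe in being high in naive and Treg cells. The day 12 arrays gave 2793 and 2304 in naive cells, 365 and 538 in TFH, 4175 and 3818 in Treg, and 922 and 1092 in TFR cells. In PP, Treg cells gave 3513 and 3849, TFR cells 1506 and 1295, and GL7+ TFH cells 1117 and 1148. Ly6k fell 5.72-fold from naive to TFH cells (adjusted p = 2.03e-05), 3.98-fold from Treg to TFR cells in pLN (adjusted p = 0.000364) and 2.63-fold in PP (adjusted p = 0.00147), in the limma fit. It was 2.56-fold higher in PP than in pLN TFH cells (adjusted p = 0.00592) and 2.26-fold higher in pLN TFR than TFH cells (adjusted p = 0.00680).

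Ly6g, which encodes a surface protein of neutrophils, had a pattern over groups like that of Ly6a. Its PP Treg arrays gave 592 and 1085 and its PP TFR arrays 110 and 79, a fall of 8.64-fold (limma adjusted p = 0.00682). Between tissues Ly6g was 7.89-fold lower in PP than in pLN TFH cells (adjusted p = 0.0190) and 5.33-fold lower in TFR cells (adjusted p = 0.0210). Ly6i, a close relative on chromosome 15, was likewise lower in PP, 3.49-fold in TFH (adjusted p = 0.0123) and 2.41-fold in TFR cells (adjusted p = 0.0242). Whether the Ly6g and Ly6i probes also bind transcripts of Ly6a or Ly6c1 was not tested. Ly6f was detected on 4 arrays, both pLN TFH arrays at day 12 (80 and 154) and 1 Treg array of each tissue. It entered the fit only through the pLN TFH group, where it was high, so its calls are counted in the list but nothing is read from them. Of these calls, the one between TFR cells of PP and pLN compared groups that were both not well above background.

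The remaining calls concerned Lynx1, Ly6m, Slurp2, Spaca4 and Ly6g5b. Lynx1, a modulator of nicotinic receptors, fell 7.72-fold from naive (794 and 529) to TFH cells (111 and 63) at day 12 (limma adjusted p = 0.0259), and 1 of these TFH arrays was below detection. Ly6m rose 4.84-fold in the same comparison (adjusted p = 0.00412), from 69 and 110 to 417 and 423, with 1 naive array below detection. Slurp2, a secreted member of the family, gave 1108 to 3710 on the pLN day 12 arrays and 3611 to 7914 in PP. It was 4.66-fold higher in PP TFH (adjusted p = 0.0149) and 3.46-fold higher in PP TFR cells (adjusted p = 0.0165). Spaca4, a sperm membrane protein, was 2.75-fold and 2.86-fold higher in the same populations of PP (adjusted p = 0.0418 and 0.0173). Ly6g5b was 2.69-fold lower in PP than in pLN TFR cells (adjusted p = 0.0168). The tested genes that were not called were Lypd5, Plaur, Gpihbp1, Lypd2 and Ly6g6c, with highest intensities between 196 and 1082.

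**Figure D4:**
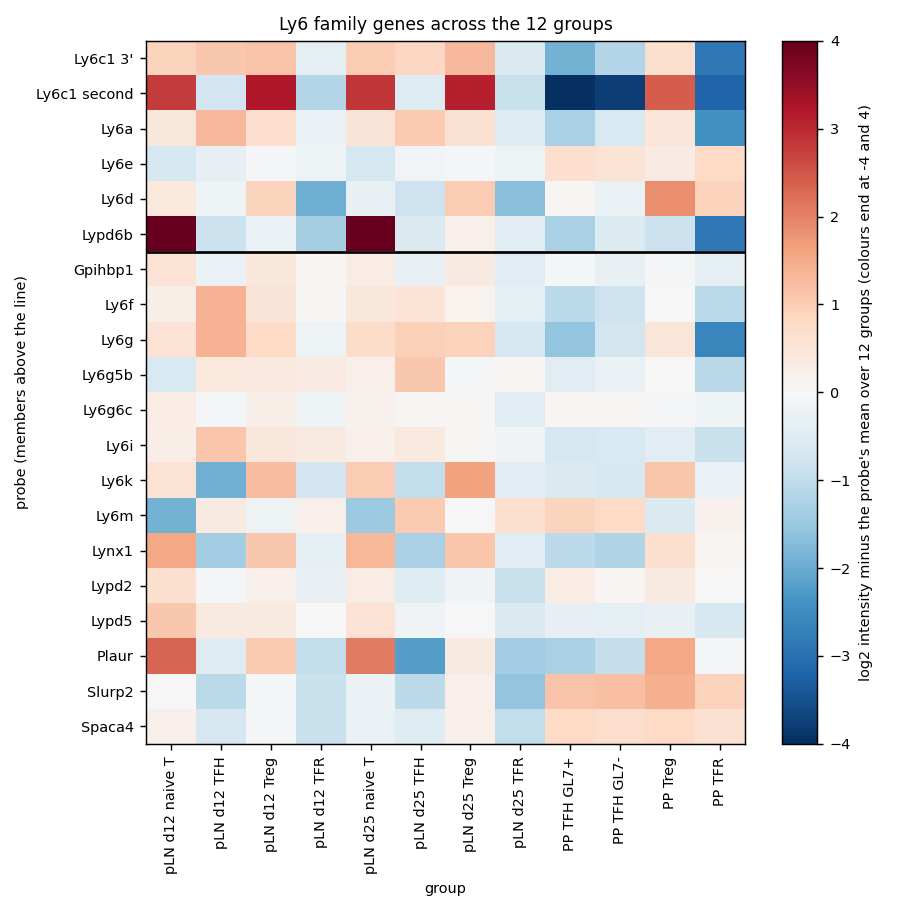
Mean log2 intensity per group relative to the mean of each probe over the 12 groups, for the 6 member probes (above the line) and the 14 other family genes tested. Ly6g follows the rows of Ly6a and the 3′ Ly6c1 probe, with its lowest value in PP TFR cells, and Lypd6b is high in the naive groups only.

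Over the whole list of 14, TFH against naive cells at day 12 gave 2 genes higher and 2 lower (median log2 difference -0.72, against -0.09 for all probes tested), and 7 calls with slide as a fixed block. Of all probes tested, 14.7% were called in this comparison. TFR against Treg cells gave 1 lower in pLN (median -0.49, all probes -0.08, 2 calls with the block) and 2 lower in PP (median -0.47, all probes -0.06, 4 calls with the block). Of all probes tested, 8.35% were called in pLN and 9.25% in PP. TFR against TFH cells gave 1 higher and 1 lower in pLN and 0 in PP, beside 5.01% and 3.44% of all probes called. PP against pLN gave 3 higher and 3 lower for TFH cells (4.54% of all probes called), 2 higher and 4 lower for TFR cells (11.1%) and 0 for Treg cells (2.24%). With slide as a random block there were 3 calls for TFH and 2 for TFR cells. Without slide 4 they were 1 for TFR against Treg cells in PP, and 0 for TFH and 2 for TFR cells between tissues. Treg against naive cells, GL7+ against GL7- TFH cells, the comparison of the TFR minus Treg difference between PP and pLN, and the 4 comparisons of day 25 with day 12 gave 0 calls by limma. Of all probes, 3.76%, 0.00898%, 0.548% and, for day 25, at most 0.0314% were called there. In those comparisons, in the same order, 3, 0, 1 and, for day 25, at most 1 of 14 genes had an unadjusted p under 0.05, as did 3 for Treg cells between tissues and 0 for TFR against GL7+ TFH cells in PP. By the methods' t-test, GL7+ against GL7- TFH cells gave 1 of 14 unadjusted and 0 adjusted.

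Because several Ly6 genes respond to interferon, a list of 30 interferon-inducible genes was read in the same fit, and all 30 were tested. TFH against naive cells at day 12 gave 2 higher and 7 lower, beside 14.7% of all probes called (median log2 difference -0.39, all probes -0.09). Those with the largest differences were Cxcl10, a chemokine (at least 15.3-fold higher, adjusted p = 0.000277), Oas2, an antiviral synthetase (13.2-fold lower, adjusted p = 0.000629), Mx1, an antiviral GTPase (6.29-fold higher, adjusted p = 0.0105) and Usp18, a brake on interferon signalling (5.24-fold lower, adjusted p = 0.00770). Treg against naive cells gave 2 higher, Cxcl10 (at least 6.48-fold, adjusted p = 0.00659) and Gbp3, a guanylate-binding protein (5.47-fold, adjusted p = 0.0218), and 0 lower (median 0.17, all probes -0.03). Of all probes, 3.76% were called in that comparison. TFR against Treg cells gave 1 higher and 3 lower in pLN, beside 8.35% of all probes called (median -0.77, all probes -0.08). In PP they gave 0 higher and 6 lower, beside 9.25% (median -0.80, all probes -0.06). In pLN the called genes included Cxcl10 (6.85-fold higher), Gbp2 (2.40-fold lower) and Igtp (2.29-fold lower), with limma adjusted p between 0.00222 and 0.0125. In PP the largest were Ifit3 (lower by a log2 difference of -3.17), Usp18 (7.74-fold lower), Oas2 (at least 3.78-fold lower) and Igtp (2.33-fold lower), with limma adjusted p between 0.00406 and 0.0398. With slide as a fixed block the counts of calls were 10 in pLN and 13 in PP, and without slide 4 the PP count was 1. TFR against TFH cells gave 0 calls in pLN (8 at an unadjusted p under 0.05) and 0 in PP (6 unadjusted), beside 5.01% and 3.44% of all probes called.

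Between tissues, the interferon-inducible genes gave 0 calls for Treg cells by limma, beside 2.24% of all probes called, with 9 of 30 at an unadjusted p under 0.05 (median log2 difference -0.53, all probes -0.05). TFH cells gave 4 lower (median -0.73, all probes 0.03, with 4.54% of all probes called). Of these 4, Ifit3 was 8.33-fold, Usp18 4.89-fold, Rsad2 4.25-fold and Rtp4 2.56-fold lower in PP, with limma adjusted p between 0.0301 and 0.0438. Without slide 4, 1 call was left. TFR cells gave 4 lower (median -0.78, all probes 0.00, with 11.1% of all probes called). Of these 4, Ifit3 was 11.3-fold, Usp18 5.29-fold, Rtp4 2.44-fold and Bst2 2.38-fold lower, with limma adjusted p between 0.00823 and 0.0269. Of the 30 genes, 0 were higher in PP in the TFH comparison and 1 in the TFR comparison. Ly6e, itself interferon-inducible, was higher in PP than in pLN in both. Over the alternatives tried, its log2 difference ran from 0.729 to 1.235 for TFH and from 0.534 to 1.177 for TFR cells. The part of interferon in the Ly6e values was not tested.

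A list of 29 genes of GPI anchor assembly and attachment was read in the same way. Of 29 listed, 28 had a probe and 27 were tested, with 0 calls by limma for TFH against naive cells (4 at an unadjusted p under 0.05, and 3 calls with slide as a fixed block), for TFR against Treg cells in pLN (4 unadjusted) and in PP (4 unadjusted), and for Treg cells between tissues (2 unadjusted). In these comparisons, in the same order, 14.7%, 8.35%, 9.25% and 2.24% of all probes were called. Pgap3, which remodels the anchor lipid, was 2.98-fold higher in PP than in pLN TFH cells (adjusted p = 0.0115) and 2.49-fold higher in TFR cells (adjusted p = 0.0104), and was the only gene of this list called in the 15 comparisons. Of all probes, 4.54% were called between tissues for TFH and 11.1% for TFR cells. Without slide 4 the TFH count of this list was 0. In the comparisons plotted, the median log2 differences of the list lay between -0.10 and 0.11.

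**Figure D5:**
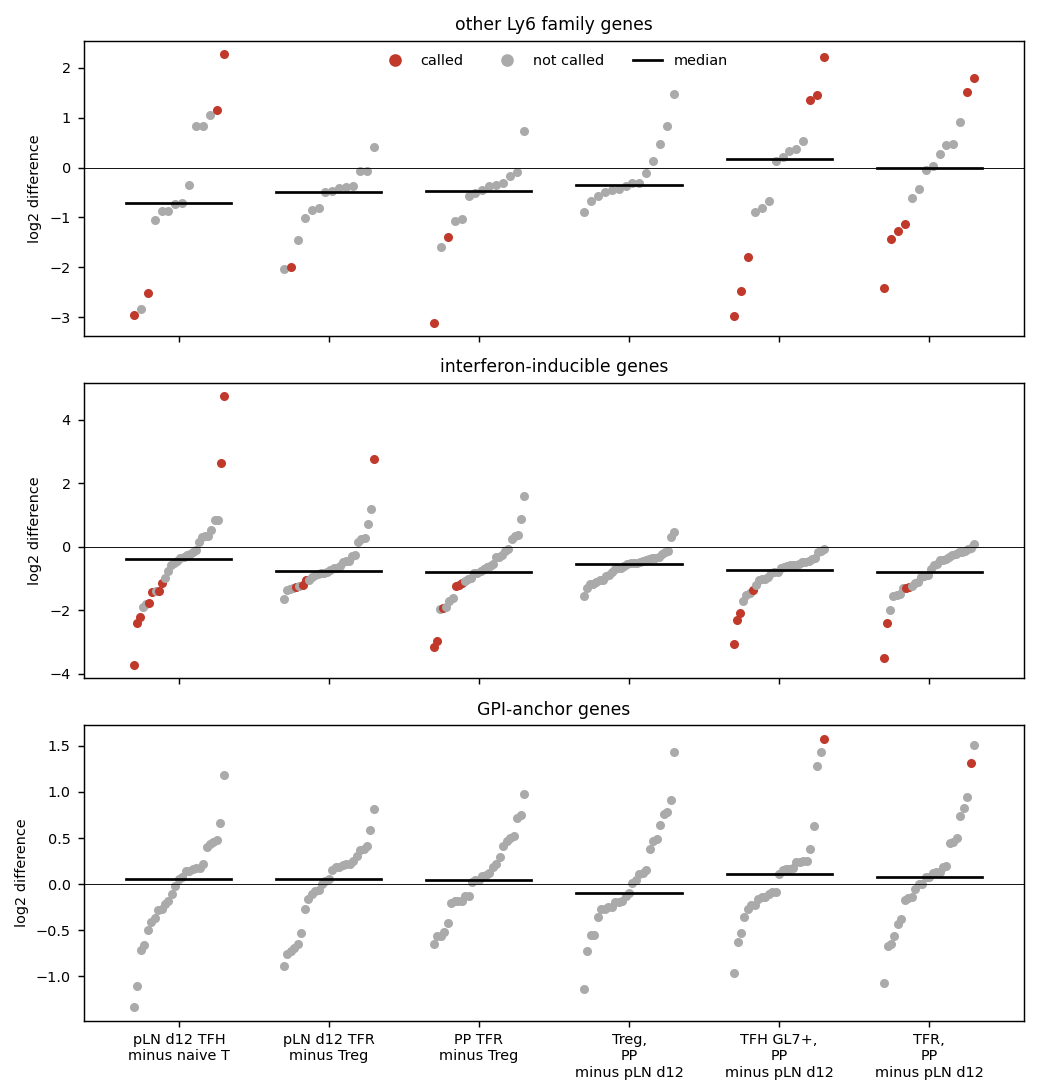
Log2 differences in 6 comparisons of the 14 other Ly6 family genes, 30 interferon-inducible genes and 27 GPI-anchor genes, sorted within each comparison, with called genes in red and a line at the median. The interferon-inducible medians lie below 0 in all 6, between -0.39 and -0.80, and the GPI-anchor medians lie near 0.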

How the data were processed

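The 20 single-colour arrays (an Agilent mouse design, mm9) were scanned with Agilent Feature Extraction 10.7.3.1 according to the submitters' processing notes. The deposited scanner files hold feature intensities and quality marks, and the series matrix holds the authors' normalised intensity per probe. As the methods describe, features were left out when flagged, with a pixel variation above 0.5 or outside 1.42 interquartile ranges. The geometric mean of the kept features (4 per probe) went through quantile normalisation, 1500 was set as the 75th percentile of each array, values under 20 became 20, and log2 was taken. Probe names were updated by accession through RefSeq for 27508 probes.

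Differences were fitted with limma 3.58.1 (R 4.3.3) on 22264 probes (those that each array of some group of 2 detected), with 1 mean per group, 8 residual degrees of freedom and Benjamini-Hochberg adjustment. A comparison was called at adjusted p under 0.05 and a log2 difference of at least 1, and the F test was called below 0.001, or 0.005 after adjustment, both required. The fit was tested on simulated data with independent spread for each array and no difference between slides. Only values of the pLN TFH arrays of day 12 were changed there. The simulation therefore does not bear on calls in PP or between tissues. The paper describes each sample as a cell fraction sorted from pooled organs. P-values measure only the spread between these samples, and the small number of arrays limits the precision. Labels give no replicate numbers, so slides served as blocks.

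The members and lists were chosen with earlier results of these data known. Named were all members, called family genes, the 5 most correlated genes per member, and up to 4 called genes per list and comparison, of which 1 is not reported here. Alternatives tried were the authors' matrix, scaling without quantile normalisation, normexp background correction, no filter, other arrays in the fit, slide blocks, left-out arrays or slide 4, the other Ly6c1 probe and the methods' t-test.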

Additional observations from a re-analysis of the deposited data

Results flagged for a closer look

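The Ly6e difference between TFR and Treg cells ran in opposite directions in the tissues. TFR cells were lower on both day 12 slides of pLN, by a mean log2 difference of -0.12, and higher on both slides of PP, by 0.48. The difference between tissues was 0.60 ± 0.37 (SE of the fit) on the log2 scale and was not past the rule for calls. No p is given for it, since Ly6e was chosen on these intensities, so it was not tested here. With scaling to the 75th percentile alone the PP value was -0.22, so that the opposition was not seen. No group had 4 or more arrays, so single arrays were not screened for outlying values.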

How the results depend on the processing

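Member log2 differences (TFH minus naive, TFR minus Treg) kept their direction in the authors' matrix. With scaling to the 75th percentile alone, TFH minus naive was -0.31 for the 3′ Ly6c1 probe and -0.056 for Ly6e, and TFR minus Treg for Ly6e was -0.47 in pLN and -0.22 in PP, against -0.12 and 0.48. With normexp correction Lypd6b was -1.09 for TFR minus Treg in PP. The second Ly6c1 probe gave -3.55 (TFH minus naive), -4.38 and -5.65 (TFR minus Treg in pLN and PP). Leaving out 1 array, TFR minus Treg in PP ran from 0.20 to 0.77 for Ly6e, -3.69 to -2.13 for Ly6a, -4.20 to -2.80 for the 3′ Ly6c1 probe and -4.33 to 2.46 for Ly6d, and TFH minus naive from -5.78 to -4.67 for Lypd6b. Without slide 4, TFR minus Treg in PP was -3.65 for Ly6a and -4.20 for Ly6c1.

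Counts of calls moved more. Other family genes: among groups 3, with 7 under a random slide block, 0 without slide 4 and 1 to 2 leaving out 1 array. TFH minus naive gave 4, with 2 unfiltered, 7 under a slide block and 2 to 4 leaving out 1 array. TFR minus TFH in pLN gave 2, with 1 under normexp, 1 unfiltered, 0 fitted on the compared groups and 0 to 1 leaving out 1 array (0 without TFR replicate 2). Treg minus naive gave 0, with 1 under the block. TFR minus Treg gave 1 in pLN, with 2 on the compared groups and 2 under the block, and 2 in PP, with 0 on the compared groups, 4 under the block, 1 without slide 4 and 1 to 2 leaving out 1 array. PP minus pLN gave 6 for TFH, with 0 on the compared groups, 3 under the block, 0 without slide 4 and 2 to 3 leaving out 1 array, and 6 for TFR, with 3 unfiltered, 0 on the compared groups, 2 under the block, 2 without slide 4 and 1 to 2 leaving out 1 array. No called family gene changed sign under any of the 3 scalings.

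Interferon-inducible genes: TFH minus naive gave 9, with 1 on the compared groups and 4 to 9 leaving out 1 array. TFR minus Treg gave 4 in pLN (0 on the compared groups, 10 under the block, 1 to 5 leaving out 1 array) and 6 in PP (0, 13, and 1 without slide 4). PP minus pLN gave 0 for Treg (1 by 75th percentile scaling), 4 for TFH (0 unfiltered, 0 on the compared groups, 1 without slide 4, 0 to 3 leaving out 1 array) and 4 for TFR (7 by 75th percentile scaling, 0 on the compared groups, 0 to 4 leaving out 1 array). GPI-anchor genes: TFH minus naive gave 0 (1 by 75th percentile scaling, 3 under the block), TFR minus Treg in pLN 0 (0 to 1 leaving out 1 array), and PP minus pLN 1 each for TFH and TFR (0 on the compared groups, 0 to 1 leaving out 1 array, and for TFH 0 without slide 4). Fits on the compared groups have few residual degrees of freedom, and a left-out array leaves a lone sample assumed to vary like the others. The cause of the other shifts was not tested. Signal over background limits Ly6f, Ly6m and Lynx1. The labels give no replicate numbers, so arrays were paired by slide, as the slide block.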
